A study of Mus musculus with 18 samples.

Results

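10 genes of heart muscle contraction and calcium handling were followed in the lung, liver and intestine of septic mice that breathed hydrogen or did not. They are Myh6, Myl4, Myl7, Tnnt2, Actc1, Ckm, Ryr2, Pln, Sln and Atp2a2, 10 of the 24346 gene symbols in the deposited values. The genes were chosen by earlier results of these same libraries, from the contrast of hydrogen (H2) against control in the lung and, for Atp2a2, in all 3 organs. Those values are therefore given as a description, without a test. Male C57BL/6 mice, 9 weeks old, were made septic by cecal ligation and puncture, an operation after which gut bacteria leak into the abdomen. H2 mice then breathed 7% hydrogen continuously in a designated box, where they shared a cage, and controls were operated on alike but got no gas, so gas and housing cannot be told apart. Poly(A) RNA of whole organs was sequenced 24 h after surgery, with n = 3 libraries per organ and treatment and 18 in all. The labels do not say which organs came from the same mouse, and unoperated or sham-operated mice are not analysed here.

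In a heart muscle cell, the ryanodine receptor releases calcium from the sarcoplasmic reticulum, the calcium binds troponin, and myosin pulls on actin until the pump encoded by Atp2a2 (SERCA2) returns the calcium to the store. Phospholamban and sarcolipin are small membrane proteins that restrain that pump. In mice, sleeves of atrial-type heart muscle extend from the left atrium along the pulmonary veins, so heart genes are known to be measurable in whole mouse lung. Atp2a2 differs from the other genes in that its SERCA2b isoform serves nearly every cell type.

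The libraries carried the marker genes of their labelled organs. The surfactant gene Sftpc was between 20779 and 33492 FPKM (reads counted as fragments, divided by transcript length and library size) in lung libraries, and no liver or intestine library exceeded 1.17 FPKM. Depth, estimated from genes seen with 1 fragment, was 9.33 M to 16.98 M fragments a library. The control lungs stood at 11.2, 14.1 and 12.9 M and the H2 lungs at 14.8, 16.98 and 16.2 M, so the H2 lungs were the deeper ones. Control lung 3 stood apart. On the axis from the other control libraries at 0 to the H2 libraries at 1, over 13424 genes, it lay at 0.759, against -0.198 and 0.176 for controls 1 and 2. The H2 lungs, each likewise placed without itself, lay at 0.782, 0.781 and 0.844, so control lung 3 was close to them. It also held 74.5 FPKM of the brown fat gene Ucp1, against at most 0.0820 FPKM in the other 5 lung libraries. The replicate 1 libraries of all 6 groups held the ventricular light chain Myl2 at 2.56 to 4.52 FPKM, against at most 0.552 FPKM in replicates 2 and 3. Values without control lung 3, or without both replicate 1 libraries of an organ, are given below where they change a call or move a value far. The second of these alternatives was added after the data were seen.

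All 10 genes passed the filter of a mean of at least 1 FPKM in the lung. In 8 of the 10, every H2 lung library was below every control library. Over the 13424 genes tested, 15.9% had that pattern. Both facts come from the contrast that chose the genes, so nothing is read from them. H2 lung 2 was the lowest of the 6 lung libraries for 10 of the 10 genes, and among the H2 libraries H2 lung 1 was the highest for 9, all but Atp2a2. The share of all genes with that library order was not counted, so nothing is read from these counts either. In bulk tissue, fewer cells of a type and less RNA per cell cannot be told apart.

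The motor proteins are taken first. Myh6, the fast alpha myosin heavy chain of heart muscle (ENSMUSG00000040752, chr14:54941921-54966927, minus strand, mm10), was at 55.8, 65.7 and 51.5 FPKM in the control lungs and 28.0, 14.3 and 21.7 FPKM in the H2 lungs. The control libraries lay close together, and the H2 libraries were all lower and, for their level, more spread. The means were 57.6 ± 7.27 and 21.3 ± 6.85 FPKM (SD, n = 3 each), a log2 change on FPKM + 1 of -1.44 ± 0.24 (SE). Myh6 and its neighbour Myh7, the slow beta heavy chain, are near-identical in sequence, so reads may be shared between them. Myh7 itself was low, at 0.821, 1.48 and 1.803 FPKM in the control lungs and 2.15, 2.95 and 2.60 FPKM in the H2 lungs, with every H2 library above every control. Within a library, Myh7 thus stood at 0.0147, 0.0225 and 0.0350 of Myh6 in the controls and at 0.0770, 0.207 and 0.120 in the H2 lungs.

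Both atrial myosin light chains stood above Myh6 in each lung library. Myl7, the atrial regulatory light chain (chr11:5896637-5898782, minus strand), measured 195, 221 and 202 FPKM in the control lungs and 127, 41.5 and 69.1 FPKM in the H2 lungs. Myl4, the atrial essential light chain (chr11:104550663-104595753, plus strand), measured 139, 156 and 136 FPKM and then 92.2, 34.9 and 49.3 FPKM. For both genes H2 lung 1 kept the most and H2 lung 2 the least, with a gap to the controls. The log2 changes were -1.51 ± 0.37 for Myl7 and -1.39 ± 0.32 for Myl4 (SE), the H2 means standing at 38.5% and 40.8% of the control means.

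Myl7 was lower in all 3 H2 lungs and Actc1, described next, was not, and both carry a serum response factor motif, the CArG box, just before their start. Their promoter sequences are shown for that pair, from RefSeq on build GRCm38.p6, read along the gene and with the CArG box in capitals. Of the 250 bases before the RefSeq start, the 12 nearest to it are left out for Actc1, since GENCODE places them in an exon. A second GENCODE transcript of Actc1 starts further upstream, so the bases shown for Actc1 lie within its annotated gene span.
Myl7 (chr11:5898783-5899032, minus strand): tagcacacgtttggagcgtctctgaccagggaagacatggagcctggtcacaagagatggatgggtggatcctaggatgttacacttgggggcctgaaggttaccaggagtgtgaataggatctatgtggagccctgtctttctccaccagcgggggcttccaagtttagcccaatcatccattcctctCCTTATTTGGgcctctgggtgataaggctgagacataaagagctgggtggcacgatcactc
Actc1 (chr2:114052888-114053125, minus strand): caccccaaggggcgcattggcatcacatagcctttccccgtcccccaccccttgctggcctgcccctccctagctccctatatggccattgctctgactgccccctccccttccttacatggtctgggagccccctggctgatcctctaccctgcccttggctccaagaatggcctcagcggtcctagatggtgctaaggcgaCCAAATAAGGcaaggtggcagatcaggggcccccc
The box is CCTTATTTGG at 61 to 52 bases before the RefSeq start of Myl7 and CCAAATAAGG at 47 to 38 bases before the RefSeq start of Actc1, the bases left out being counted. Of 32851 mouse promoter windows of 250 bases before the start, 1.47% held a CArG box on either strand. The table matched 8 of the 10 genes, in 9 windows, and 2 of these windows held the box, those printed. Not all 9 windows lie outside exons. GENCODE exons cover all 250 bases of 1 Tnnt2 window and 208 bases of the Myl4 window, there exons of Cdc27. They also cover 69 bases for Ckm, 34 for Myh6 and 19 for Pln. CATTCC, the M-CAT element, was in 3 of the 9 windows (Myh6, Myl7 and Tnnt2) and in 12.6% of all, and in Myl7 it lay next to the CArG box without overlap. GATAA was in 3 (Myl7, Pln and Tnnt2) and 22.6% of all, and TATAAA in 1 (Pln) and 12.4% of all. The MEF2 site was in 0 of the 9 windows and 2.92% of all. Such matches describe letters only.

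Actc1, the actin of heart thin filaments (chr2:114047282-114053548, minus strand), measured 20.4, 29.6 and 25.8 FPKM in the control lungs and 34.3, 17.9 and 24.7 FPKM in the H2 lungs. The groups overlapped fully, and the single highest library was an H2 library. The means were 25.3 ± 4.58 and 25.6 ± 8.21 FPKM (SD, n = 3), and the log2 change was -0.01 ± 0.25 (SE). The sign of that change depends on the libraries and the scaling. The change was -0.38 without both replicate 1 libraries, -0.33 with array weights, 0.21 without H2 lung 2 and 0.05 after quantile normalization. Relative to Myh6 in the same library, Actc1 stood at 0.367, 0.450 and 0.501 in the controls and at 1.23, 1.26 and 1.14 in the H2 lungs, 2 ranges that did not meet. Myh6 was itself chosen from the H2 contrast, and any gene that fell less than Myh6 rises in such a ratio. Nothing is therefore read from this separation. Actin genes are near-identical in their coding parts, so reads of Acta2, the smooth muscle actin at 32.1 to 52.1 FPKM in these lungs, may have been assigned to Actc1. The part of such reads in the Actc1 value was not tested.

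Tnnt2, cardiac troponin T, which ties the troponin complex to tropomyosin (chr1:135836354-135852260, plus strand), was at 179.5, 196 and 161 FPKM in the control lungs and 123, 52.8 and 71.5 FPKM in the H2 lungs. No H2 library reached the lowest control. The log2 change was -1.19 ± 0.29 (SE), and the mean was 46.2% of control. The ratio of Tnnt2 to Myh6 was 2.98 to 3.22 in the controls and 3.30 to 4.41 in the H2 lungs, a smaller step than that of Actc1.

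Ckm, the muscle creatine kinase that rebuilds ATP beside the contractile filaments (chr7:19404776-19422841, plus strand), measured 12.4, 11.4 and 11.2 FPKM in the control lungs and 5.32, 2.26 and 2.58 FPKM in the H2 lungs. The 3 controls were almost equal and the H2 libraries lay far below them. The mean was 29.0% of control, the lowest share of the 10 genes, with a log2 change of -1.59 ± 0.25 (SE). The antisense gene A930016O22Rik overlaps exons of Ckm and was itself at 1.29 to 1.81 FPKM in the control lungs and 0.468 to 0.919 FPKM in the H2 lungs. Whether strand was used in counting is not given in the sources used here, so the reads of this pair cannot be told apart.

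**Figure D1:**
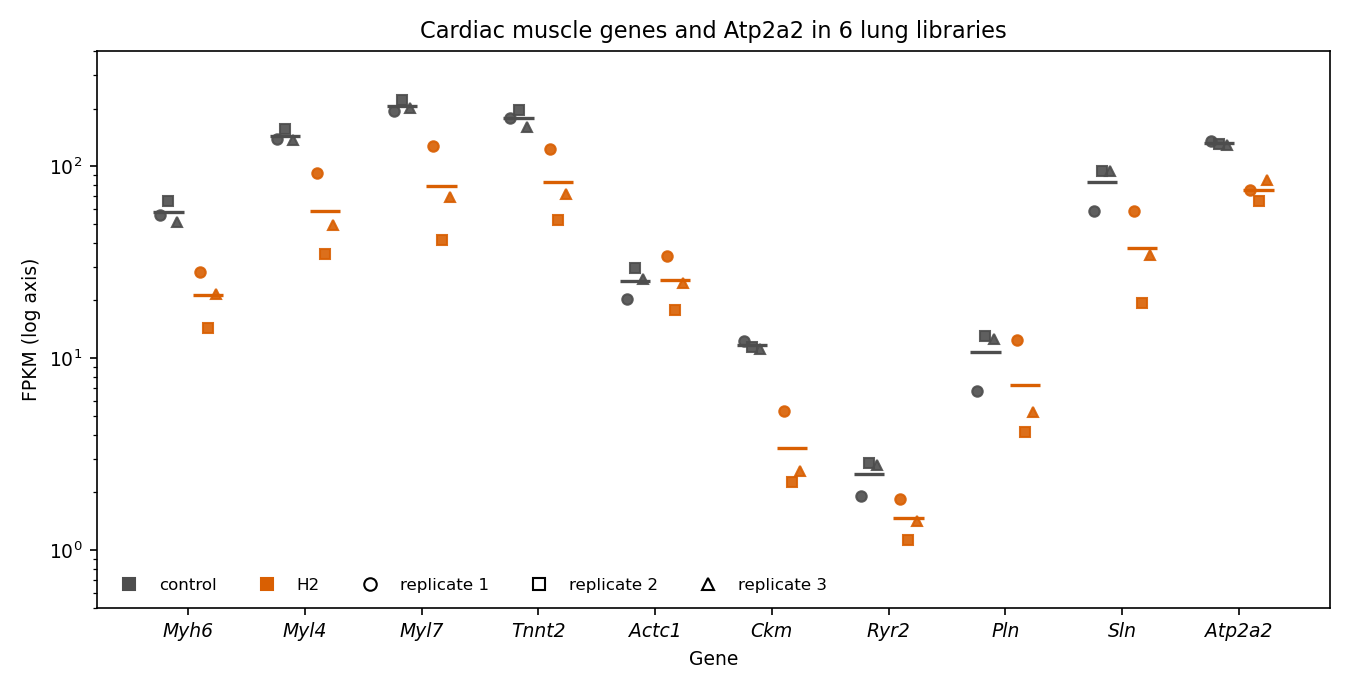
Level of each of the 10 genes in the 6 lung libraries, in FPKM on a log axis; each point is a library (grey control, orange H2, shape by replicate number) and each bar the mean of 3 libraries. In 8 genes the H2 points lie below all control points, while in Actc1 and Pln the groups overlap.

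Ryr2, the calcium release channel of the heart cell's store (chr13:11553102-12106945, minus strand), was the least abundant of the 10 genes. It measured 1.91, 2.83 and 2.77 FPKM in the control lungs and 1.85, 1.13 and 1.42 FPKM in the H2 lungs. Control lung 1 and H2 lung 1 differed by little, and the groups only just failed to overlap. The log2 change was -0.51 ± 0.18 (SE) on FPKM + 1, a scale that shrinks changes of low genes, and the mean was 58.6% of control. Without both replicate 1 libraries the log2 change was -0.74. Relative to Myh6, Ryr2 was at 0.0343 to 0.0538 in the controls and 0.0655 to 0.0791 in the H2 lungs, again without overlap. The limit given for the Actc1 ratio holds here too.

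Pln and Sln encode the 2 restraining peptides of the pump, and their whole coding sequences are short enough to show, from GENCODE vM21 transcripts on mm10, with start and stop codons in capitals.
Sln (chr9:53853473-53853568, plus strand): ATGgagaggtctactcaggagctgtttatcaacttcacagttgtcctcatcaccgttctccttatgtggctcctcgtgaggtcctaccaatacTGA
Pln (chr10:53343864-53344022, plus strand): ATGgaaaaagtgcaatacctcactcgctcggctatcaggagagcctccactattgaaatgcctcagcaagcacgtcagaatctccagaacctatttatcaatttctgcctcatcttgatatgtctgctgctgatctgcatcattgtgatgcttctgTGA
Sarcolipin is encoded by 96 bases for 31 amino acids, and phospholamban by 159 bases for 52. Sln measured 58.7, 95.1 and 94.7 FPKM in the control lungs and 58.2, 19.4 and 34.4 FPKM in the H2 lungs. Replicate 1 of both groups was almost equal, and the other 4 libraries were far apart. The log2 change was -1.23 ± 0.39 (SE). It was -1.83 without both replicate 1 libraries and -0.84 without H2 lung 2.

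Pln measured 6.75, 12.98 and 12.6 FPKM in the control lungs and 12.4, 4.13 and 5.22 FPKM in the H2 lungs. The groups overlapped, with control lung 1 the lowest control and H2 lung 1 at the level of controls 2 and 3. The log2 change was -0.60 ± 0.40 (SE), and it was -1.29 without both replicate 1 libraries and -0.32 without H2 lung 2. Sln exceeded Pln by 7.32- to 8.70-fold in the control lungs and by 4.68- to 6.59-fold in the H2 lungs. The gene Cep85l, on the other strand, shares exon positions with Pln and was at 5.71 to 8.97 FPKM in the control lungs and 7.84 to 13.9 FPKM in the H2 lungs, so Pln is uncertain for the same reason as Ckm.

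**Figure D2:**
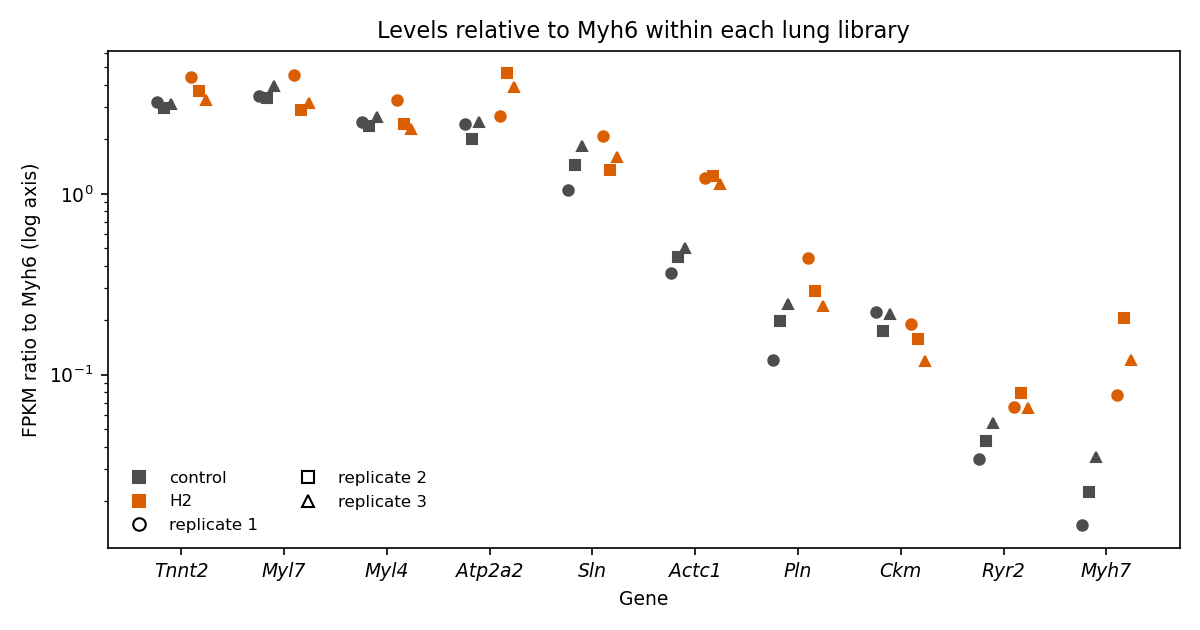
FPKM of each gene divided by the FPKM of Myh6 in the same lung library, on a log axis, with grey control and orange H2 points and shapes by replicate number. Tnnt2, Atp2a2, Actc1, Ryr2 and Myh7 lie higher relative to Myh6 in all 3 H2 libraries than in all 3 controls, while Myl4, Myl7, Sln, Pln and Ckm overlap. Myh6 was chosen from the H2 contrast, and a gene that fell less than Myh6 rises here, so nothing is read from these separations.

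Across the 6 lung libraries, the 36 pairs among the 9 genes other than Atp2a2 had Pearson r from 0.281 (Actc1 with Ckm) to 0.998 (Myl4 with Tnnt2), with a median of 0.909 on log2(FPKM + 1). These values describe 6 libraries whose 2 groups already differ. The 10 tested genes outside the set that tracked the 9 most closely, by r with their mean standardised level, began with Tnni3, cardiac troponin I, at r = 0.995. Tnni3 was at 91.3, 117 and 105 FPKM in the control lungs and 74.3, 23.5 and 40.5 FPKM in the H2 lungs, in the same library order as Myl7 and Tnnt2 within the H2 group. 4 more of the 10 are muscle genes on the lists below: Myoz2 (r = 0.987), Lmod2 (0.985), Mb (0.980) and Casq2 (0.980). The others were Tmem182 (0.993), AF251705 (0.988), Mad2l1 (0.987), Rnaseh2a (0.985) and Nhp2l1 (0.980).

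Atp2a2 (ENSMUSG00000029467, chr5:122453513-122502225, minus strand) measured 136, 131 and 129 FPKM in the control lungs and 75.4, 66.1 and 84.3 FPKM in the H2 lungs. Its library order within the H2 lungs differed from that of the cardiac genes, with H2 lung 3 highest. Across all lung libraries, whose groups already differ, its r with the cardiac genes ran from 0.108 (Actc1) to 0.955 (Myh6). The means were 132 ± 3.77 and 75.3 ± 9.10 FPKM (SD, n = 3), and the log2 change was -0.81 ± 0.12 (SE). In the intestine it measured 110.2, 98.0 and 101 FPKM in the controls and 64.5, 62.1 and 75.5 FPKM in the H2 libraries. All 3 H2 intestines were again below all 3 controls, a pattern of 8.75% of the 11910 genes tested there. The log2 change was -0.61 ± 0.17 (SE), with means of 103 ± 6.42 and 67.4 ± 7.13 FPKM.

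In the liver Atp2a2 measured 78.7, 74.0 and 67.8 FPKM in the controls and 65.8, 67.2 and 65.8 FPKM in the H2 libraries. The groups did not overlap, but the highest H2 library and the lowest control were only 67.2 and 67.8 FPKM. The log2 change was -0.15 ± 0.11 (SE), and 13.1% of 10041 liver genes had all H2 libraries below all controls. The H2 mean was thus 57.0% of control in the lung, 65.5% in the intestine and 90.1% in the liver. These 3 shares belong to the contrast that chose the gene, and the differences between organs in response were not tested.

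**Figure D3:**
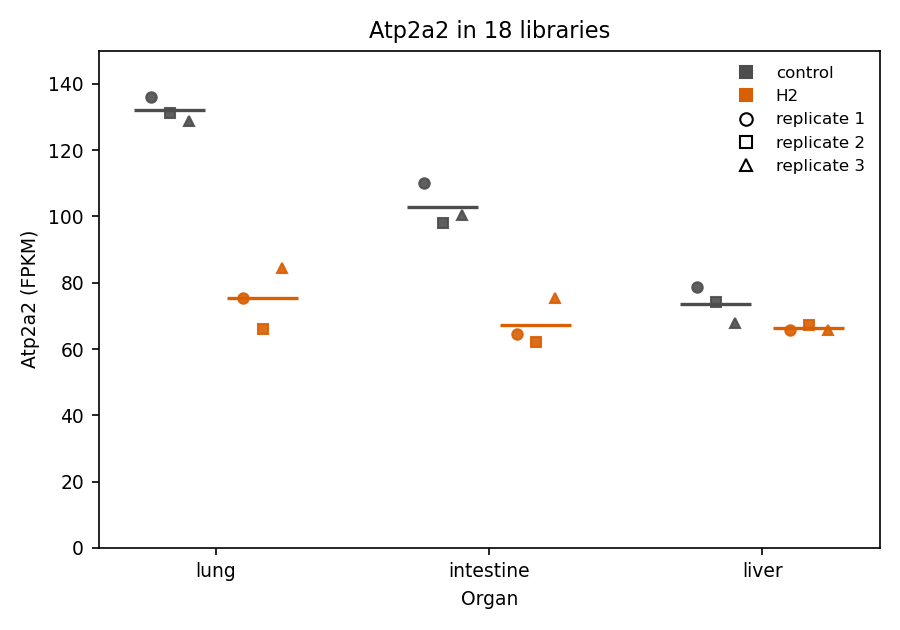
Atp2a2 in FPKM in 18 libraries by organ, with grey control and orange H2 points, shapes by replicate number and bars for the means of 3 libraries. H2 points lie below all control points in each organ, by a wide margin in lung and intestine and a narrow one in liver.

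Averaged over both treatments, which the choice of genes did not use, Atp2a2 was at 104 FPKM in the lung, 85.1 in the intestine and 69.9 in the liver. In limma's fit of all 18 libraries the log2 difference was 0.51 ± 0.08 for lung over liver (adjusted p = 1.3e-05), 0.26 ± 0.08 for lung over intestine (adjusted p = 0.00676) and 0.25 ± 0.08 for intestine over liver (adjusted p = 0.00822). Among 14561 genes, 78.7%, 56.6% and 64.5% were called higher in the first organ of these pairs. The order rests on the scale of FPKM. With median-of-ratios scaling the same differences were -0.90, -0.27 and -0.63, and the order of the 3 organs was turned around.

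The 5 genes most like Atp2a2 over the 18 libraries, after the mean of each organ was removed, among 8826 genes, were Arg1 (r = 0.909), Clic4 (0.876), Orm1 (0.871), Ifi204 (0.867) and Mt2 (0.864). Arg1 encodes arginase, Orm1 an acute phase plasma protein and Mt2 a metallothionein. None of the 5 is a muscle gene, but only genes that passed the filter in all 3 organs were searched. In the liver 1 of the 10 genes described here passed it, Atp2a2 itself. The 9 cardiac genes could therefore not appear, and nothing is read from their absence. The r values also include the H2 contrast that chose Atp2a2. Arg1 measured 67.6, 28.0 and 10.9 FPKM in the control lungs and 3.92, 3.68 and 3.98 FPKM in the H2 lungs. Its control lungs spread widely, with control lung 3 the lowest, whereas the control lungs of Atp2a2 lay close together.

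Other genes of the sarcomere, the contractile unit, were 29, of which 23 passed the filter in the lung. By limma with Benjamini-Hochberg adjustment over all genes, 0 of the 23 were called at 0.05, against 0.00745% (1) of the 13424 genes. At an unadjusted p under 0.05, 15 were lower and 4 higher with H2, a threshold that 12.5% of all genes passed as lower and 10.5% as higher. All H2 libraries lay below all controls in 14 and above them in 4, beside 15.9% and 14.1% of all genes. The median log2 change was -0.84, against -0.0036 over all genes. Actn2, the alpha-actinin of the Z disc, was at 8.36, 9.88 and 10.6 FPKM in the control lungs and 4.82, 2.42 and 3.55 FPKM in the H2 lungs (log2 -1.23 ± 0.20, adjusted p = 0.172). Tnnc1, the calcium-binding troponin C, was at 56.6, 54.0 and 44.2 FPKM and then 34.3, 13.6 and 17.7 FPKM (-1.30 ± 0.31). Both showed the library order of the myosin genes in the H2 group.

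Hspb7, a small heat shock protein of heart muscle, was at 18.8 and 10.2 FPKM in the control and H2 means (-0.84 ± 0.14), and Smpx, a small muscle protein, at 5.41 and 1.58 FPKM (-1.37 ± 0.25). The most abundant was Tpm1, a tropomyosin shared with non-muscle cells, at 260.5 and 211 FPKM (-0.31 ± 0.13). Higher in every H2 library were Myh7, Nebl, Nexn and Cryab. Cryab, a small heat shock protein of many tissues, was at 94.8, 111 and 210 FPKM in the controls and 214, 214 and 212 FPKM in the H2 lungs, and control lung 3 sat beside the H2 libraries. Without control lung 3, 11 of the 23 were called, 9 lower and 2 higher. The 2 that rose in that fit were Myh7 (log2 0.74, adjusted p = 0.0357) and Cryab (1.05, adjusted p = 0.00653). A fit of all 18 libraries takes its spread from the other organs too. It called 12 of the 23, beside 818 of the 13424 genes. A fit without both replicate 1 libraries called 0 of the 23. The fit without control lung 3 called 12.6% of all genes lower and 12.0% higher.

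Genes of muscle energy supply numbered 13, and all 13 were tested in the lung. In limma, 0 were called, and 9 were lower and 0 higher at an unadjusted p under 0.05 (12.5% and 10.5% of all genes). All H2 libraries lay below all controls in 7, a pattern of 15.9% of all genes. The median log2 change of the 13 was -0.80, and -0.71 without control lung 3. Cox7a1, Cox8b and Fabp3 were higher in control lung 3 than in any other lung library. Without it their changes went from -1.38, -1.02 and -1.05 to -1.07, -0.49 and -0.71, while those of Mb, Ckmt2, Cox6a2 and Hspb6 became slightly more negative. Mb, the oxygen-binding myoglobin, was at 101, 133 and 93.3 FPKM in the control lungs and 70.2, 23.2 and 32.4 FPKM in the H2 lungs (-1.49 ± 0.38). Ckmt2, the mitochondrial partner of Ckm, was at 15.2 and 5.57 FPKM in the group means (-1.37 ± 0.26). Cox6a2, a heart and muscle subunit of cytochrome c oxidase, was at 82.7 and 54.6 FPKM (-0.59 ± 0.10). Hspb6, a small heat shock protein that the list also holds, was at 14.8 and 9.29 FPKM (-0.62 ± 0.11). Each of these 4 had an adjusted p of 0.172. Without control lung 3, 5 of the 13 were called, all lower: Adssl1, Ckmt2, Cox6a2, Hspb6 and Mb. That fit called 12.6% of all genes lower and 12.0% higher.

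The other genes of calcium release and uptake did not share that median. Of 34 listed, 27 were tested, 0 were called by limma, and at an unadjusted p under 0.05, 5 were lower and 2 higher, beside 12.5% and 10.5% of all genes. The median log2 change was 0.12, and all H2 libraries lay below all controls in 5 and above them in 5, beside 15.9% and 14.1% of all genes. The 5 lower were Casq2, the calcium buffer of the heart store, Hrc, a calcium-binding protein of the same store, Srl, Fkbp1a and Orai1. Casq2 was at 4.501, 5.55 and 4.15 FPKM in the controls and 3.44, 0.675 and 1.78 FPKM in the H2 lungs (-1.06 ± 0.34, adjusted p = 0.174). Hrc was at 4.79, 5.23 and 5.35 FPKM and then 3.04, 1.15 and 2.27 FPKM (-1.004 ± 0.23, adjusted p = 0.172). Within the H2 group both store proteins had the library order of Myh6, and among the controls Hrc did not.

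Atp2a3, the pump isoform of blood and endothelial cells, ran the other way from Atp2a2. It measured 18.1, 26.5 and 32.7 FPKM in the control lungs and 43.0, 40.3 and 52.9 FPKM in the H2 lungs (0.82 ± 0.22, adjusted p = 0.172). Fkbp1a, a binding partner of ryanodine receptors found in most cells, was at 325, 240.3 and 245 FPKM and then 185, 156 and 187 FPKM (-0.60 ± 0.15). S100a1, a calcium sensor and the most abundant gene of the list, was at 278 and 251 FPKM in the group means (-0.14 ± 0.14), and its groups overlapped. Without control lung 3, 8 of the 27 were called, 6 lower and 2 higher, beside 12.6% and 12.0% of all genes in that fit. The 2 higher were Atp2a3 and Fkbp1b.

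Of 15 genes of the intercalated disc and of ion channels, 10 were tested and 0 were called by limma, with a median of 0.01. At an unadjusted p under 0.05, 3 were lower and 2 higher, beside 12.5% and 10.5% of all genes. Gja1, the connexin 43 of heart and many other cells, was at 72.0, 49.3 and 26.2 FPKM in the controls and 23.9, 22.4 and 22.5 FPKM in the H2 lungs (-0.95 ± 0.33, adjusted p = 0.184). Myzap, a junction protein, was at 18.9, 57.1 and 84.5 FPKM and then 118, 102 and 133 FPKM (1.35 ± 0.50, adjusted p = 0.195). In both, control lung 3 was the control nearest to the H2 libraries. Kcnj2 (-0.60 ± 0.17) and Popdc2 (-0.49 ± 0.18) were lower and Gja5 (0.86 ± 0.27) higher in every H2 library. Limma without control lung 3 called 4 of the 10, 2 lower and 2 higher, beside 12.6% and 12.0% of all genes. In that fit Gja1 (log2 -1.34, adjusted p = 0.00825) and Kcnj2 (-0.73, adjusted p = 0.0202) fell, and Gja5 (1.11, adjusted p = 0.0194) and Myzap (1.798, adjusted p = 0.0303) rose. Of 12 cardiac transcription factors only 4 passed the filter, 0 were called and 0 had an unadjusted p under 0.05. Their highest was Mef2a, at 35.6 and 33.7 FPKM in the group means, Tbx5 was at 8.02 and 8.47 FPKM and Mef2c at 2.68 and 3.32 FPKM. Smyd1, a methyltransferase that the list also holds, was at 1.30 and 0.918 FPKM.

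**Figure D4:**
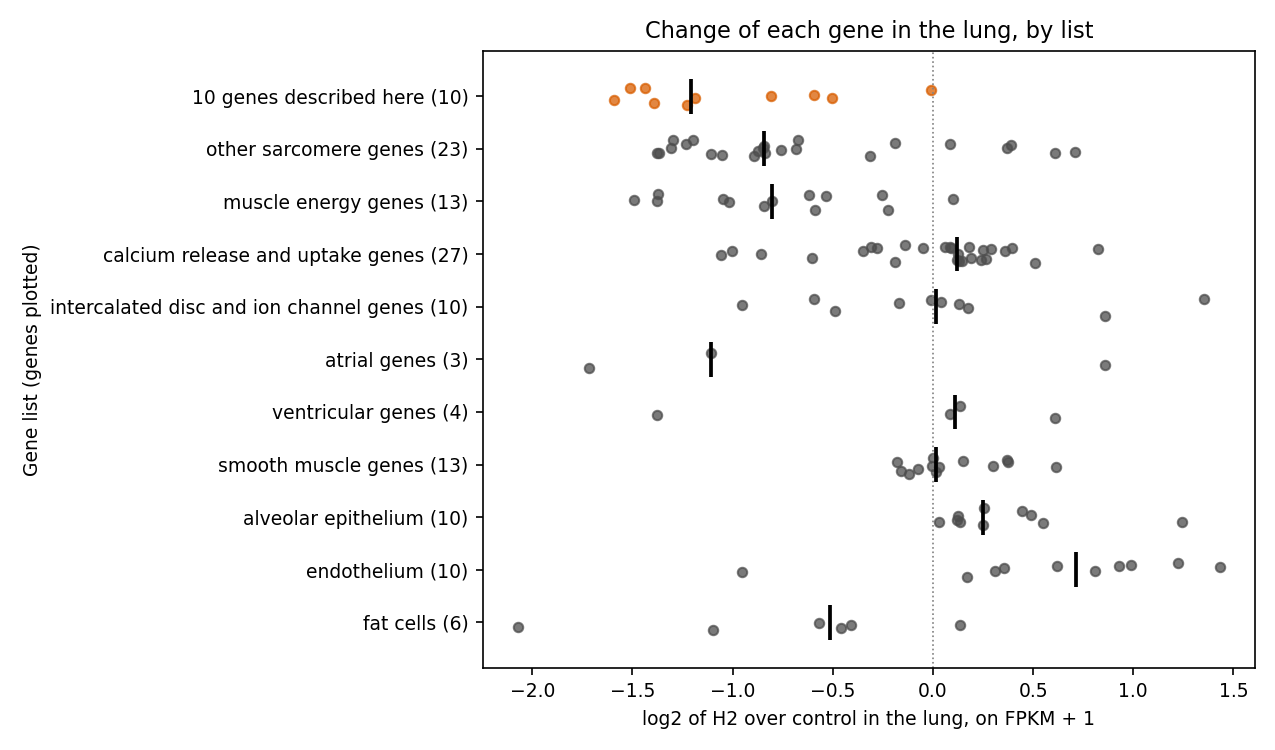
Log2 of H2 over control in the lung on FPKM + 1, with 1 point per tested gene, the 10 genes described here in orange, other lists in grey and a bar at each median. Other sarcomere genes (median -0.84) and muscle energy genes (-0.80) lie mostly left of 0, while calcium genes (0.12) and smooth muscle genes (0.02) lie around it.

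Markers were used to see which muscle the lung values look like. Of 8 atrial genes, 4 exceeded 1 FPKM in any lung library and 1 (Bmp10) was at 0 in all 6. The list summed to 94.9 to 117 FPKM in the control lungs and 29.4 to 81.0 FPKM in the H2 lungs. Its highest gene in each lung library was Nppa, the atrial natriuretic peptide, at 83.0, 92.2 and 99.9 FPKM in the controls and 67.2, 18.4 and 15.8 FPKM in the H2 lungs (-1.72 ± 0.50, adjusted p = 0.172). Gja5 in the H2 lungs was at 6.41, 9.73 and 9.20 FPKM against 2.69, 4.06 and 6.26 FPKM in the controls, and Mybphl was at 8.83 and 3.73 FPKM in the group means (-1.11 ± 0.27). The 6 ventricular genes summed to 13.9 to 22.02 FPKM in the controls and 7.19 to 15.7 FPKM in the H2 lungs, and Irx4 was at 0 in all 6 libraries. Myl2, the ventricular counterpart of Myl7, was at 4.52, 0 and 0.349 FPKM in the controls and 3.55, 0.262 and 0.552 FPKM in the H2 lungs, so Myl7 exceeded it in each lung library. Myl3, the ventricular essential light chain, was at 11.4 and 4.13 FPKM in the group means (-1.38 ± 0.39), and Hey2 at 1.998 and 2.24 FPKM. By limma 0 atrial and 0 ventricular genes were called, and 2 and 1 were lower and 1 and 1 higher at an unadjusted p under 0.05. Over all genes 12.5% were lower and 10.5% higher at that threshold. The fit without control lung 3 called Mybphl and Myl3 lower and Gja5 and Myh7 higher, beside 12.6% and 12.0% of all genes. The fit without both replicate 1 libraries called Nppa lower (log2 -2.43, limma adjusted p = 0.0451), and its count over all genes is given further below.

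Skeletal muscle genes were scarce. Of 21, only 6 passed the filter, 5 were at 0 in all 6 lung libraries, and the sum was 18.3 to 26.0 FPKM in the controls and 11.7 to 19.7 FPKM in the H2 lungs. Myl1, the fast skeletal light chain, was at 6.90 and 3.002 FPKM in the group means, Tnnt3 at 3.70 and 2.25 FPKM, Tnnt1 at 2.74 and 2.06 FPKM and Mylpf at 2.002 and 2.52 FPKM. Smooth muscle genes, all 13 tested, summed to 311 to 444 FPKM in the controls and 379 to 484 FPKM in the H2 lungs, with a median log2 change of 0.02. Endothelial genes, all 10 tested, had a median of 0.71 and 4 with every H2 library above every control, a pattern of 14.1% of all genes. In limma without control lung 3, 7 of the 10 were called, 6 higher and 1 lower, with a median of 0.92. That fit called 12.0% of all genes higher and 12.6% lower. Kdr (0.92), Vwf (1.12), Emcn (1.92) and Aplnr (1.18), 4 of the 6, rose there and Cldn5 (-1.39) fell. Alveolar genes had a median of 0.25, 4 of 10 above. Fat genes summed to 195 to 1033 FPKM in the controls and 133 to 265 FPKM in the H2 lungs, the highest being control lung 3, and their median of -0.51 became 0.47 without it. The lists of skeletal muscle, smooth muscle, endothelium, alveoli and fat held 0 genes called by limma, and at an unadjusted p under 0.05 they held 1, 0, 1, 0 and 0 lower and 0, 1, 5, 3 and 0 higher genes. Over all genes 12.5% were lower and 10.5% higher at that p. Of the other lists, airway epithelium had a median of 0.28 over 7 tested genes, myeloid cells -0.04 over 8, and fibroblasts and mesothelium -0.27 over 9, which was 0.29 among genes of at least 5 FPKM. Thymus had 1 tested gene (Cd8b1, -0.41), and airway cartilage and esophagus had 0, with sums of at most 0.339 and 0.802 FPKM. In limma without control lung 3 the calls were 1 skeletal muscle gene (Myl1, lower), 2 of smooth muscle (Mylk and Smtn, higher), 3 alveolar (Ager, Lamp3 and Rtkn2, higher), 1 airway (Cyp2f2, higher), 4 of fibroblasts and mesothelium (Col1a1 and Col1a2 higher, Msln and Pdgfra lower), 1 myeloid (Ly6c2, lower) and 2 fat genes (Cidec and Plin1, higher). Every H2 lung was deeper than every control lung and had a lower atrial sum, and the part of depth and of these other cells in the values of the 10 genes was not tested. Without control lung 3 the log2 changes were -0.83 for Atp2a2 and 0.01 for Actc1, against -0.81 and -0.01 with it.

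Outside the lung, the 9 cardiac genes were near the floor with 1 exception. The lowest lung library exceeded the highest liver or intestine library for each of the 9. The share of all genes with that pattern was not counted. Of 14561 genes, 78.7% were called higher in the lung than in the liver and 56.6% higher than in the intestine. The closest approach on the fold scale was Pln, at 4.13 FPKM in its lowest lung library and 2.004 FPKM in control intestine 2, and Myl7, at 41.5 and 18.7 FPKM. Sln was listed at 0 in all 12 liver and intestine libraries. In the liver only Atp2a2 passed the filter, and the highest value of any cardiac gene was 1.52 FPKM (Actc1 in H2 liver 1).

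Those liver traces lay mostly in the replicate 1 libraries. Myh6 was at 0.899 and 0.776 FPKM in control and H2 liver 1 and at 0 in the other 4 livers. In 6 of the 9 genes both replicate 1 livers exceeded all 4 others, and this held for 3 of the 9 in the intestine. The share of all genes with that pattern was not counted, so it is not read as particular to these genes. Myh6 was likewise at 0.691 and 0.757 FPKM in control and H2 intestine 1 and at most 0.0351 FPKM in the other 4. The club cell gene Scgb1a1, at 116696 FPKM or more in the lung, was at 3.22 to 5.27 FPKM in the same 4 replicate 1 libraries and at 0 in replicates 2 and 3 of both organs. Both treatments show it, so it does not separate H2 from control.

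Myl7 was the exception in the intestine. It measured 10.3, 5.36 and 5.44 FPKM in the control intestines and 12.8, 18.7 and 6.97 FPKM in the H2 intestines, while Myl4 was between 0.381 and 1.01 FPKM. The intestine values overlapped between the treatments, and the log2 change was 0.74 ± 0.36 (SE, limma adjusted p = 0.429), not called, beside 0.00840% of 11910 genes called. Against the liver, where Myl7 was at most 0.238 FPKM, the intestine was higher by a log2 of 3.22 ± 0.25 (limma adjusted p = 4.74e-09), 6 of 6 libraries above all livers. Of 14561 genes, 64.5% were called higher in the intestine than in the liver, as were 3 of the 10 genes described here. The contrast is shown only for genes averaging at least 1 FPKM in the liver or the intestine. Myl7 met that rule through the intestine alone (9.93 FPKM, against 0.0772 FPKM in the liver), so nothing is read from this test.

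**Figure D5:**
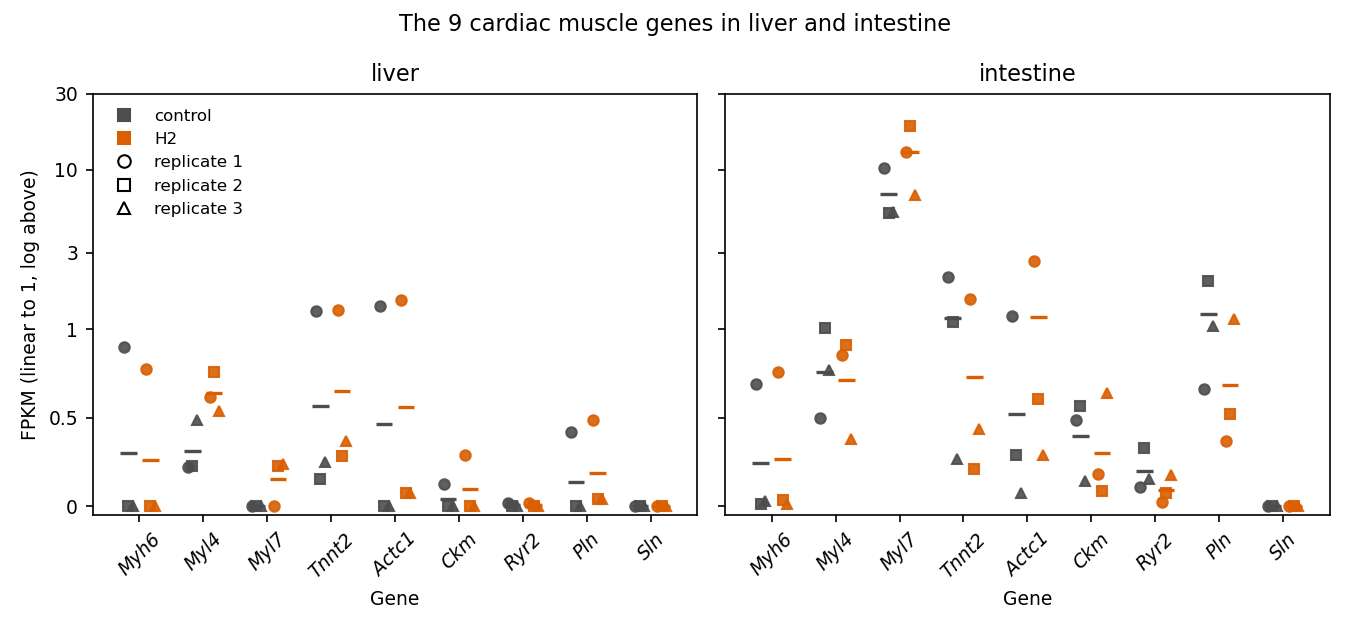
The 9 cardiac genes in 6 liver and 6 intestine libraries, in FPKM on an axis that is linear to 1 and logarithmic above, with grey control and orange H2 points, shapes by replicate number and bars for means. Circles, the replicate 1 libraries, lie highest for Myh6, Tnnt2 and Actc1 in both organs, and Myl7 stands above 5 FPKM in all 6 intestine libraries.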

How the data were processed

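Per the labels' protocols, miRNeasy Micro RNA was made into TruSeq stranded mRNA libraries. The submitters' processing notes name Cufflinks 2.2.1, TopHat2 2.0.13, SAMtools 0.1.19 and Bowtie2 2.2.3, and build mm10. Annotation and use of strand are not given in the sources used here. Values deposited by the authors are FPKM of 24346 symbols in 18 libraries; the unit is taken from the values and the tools named. 1 column in the table of control lung 2 equals control lung 3 (0 values differ) and was not used. The groups follow the sample titles, and the descriptions disagree with them in writing H3 and H4 for replicates 2 and 3 of H2. FPKM give no counts, so depth was implied from genes at 1 fragment and no interval is given for single values.

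Changes are from limma 3.58.1 in R 4.3.3 on log2(FPKM + 1), two-sided, with an empirical Bayes trend, each organ alone, over genes whose FPKM averaged 1 or more, adjusted by Benjamini and Hochberg and called under 0.05. Nothing says that the libraries of a group came from separate mice, so p-values measure the spread between these libraries. An exact permutation test of 3 against 3 libraries cannot go below p = 0.1. Organ differences used all 18 libraries. The fit was tested on simulated data, in which 67% of 100 lung genes changed by a log2 of 1 and 91% of those changed by 2 were called. In that lung run 5 unchanged genes were called too. Noise was drawn for each gene alone, without a shift shared by genes, and only genes well above the filter were changed. These shares therefore do not describe a library that stands apart, as control lung 3 did, or genes as low as Ryr2. The 10 genes and the gene lists were chosen with earlier results of these data known. Named from each list were the called genes, else up to 4 with the smallest p and the 2 with the highest lung level. The lists of cells other than heart and skeletal muscle are given by counts, with only some of these genes named. Casq2, Atp2a3, Nebl, Nexn, Fkbp1b, Adssl1, Cox7a1, Cox8b, Fabp3, Cidec, Msln, Csrp3, Gata4 and the single markers Ucp1, Bmp10, Irx4, Acta2, Scgb1a1, Cep85l and A930016O22Rik were named after their values were seen. A gene can be on 2 lists and is then counted in both (among tested genes Myh7, Myl2, Myl3, Mybphl and Gja5 are). Gene positions are from GENCODE vM21 and promoters from RefSeq on GRCm38.p6. Other settings, tried 1 at a time, were no filter, a filter at a mean of 5 FPKM, pseudocounts of 0.1 and 5, 2 scalings, other variance models, library weights, a replicate block, 1 fit of all libraries and each library left out.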

Additional observations from a re-analysis of the deposited data

How the results depend on the processing

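The 1 gene called in the lung became 2 with no filter, 818 with all 18 libraries in 1 fit, 7137 with array weights (whose estimation stopped before convergence) and 4 without both replicate 1 libraries. Leaving out 1 library gave 1 to 3295 calls in the lung, the highest without control lung 3, 0 to 2834 in the liver against 2, the highest without control liver 2, and 2 to 28 in the intestine against 1, the highest without control intestine 2. The liver count was 0 at a pseudocount of 0.1, with no filter and at a mean FPKM of at least 5, then 445 with all libraries in 1 fit and 2520 with array weights. The intestine count was 2 with a robust fit, 11 with array weights, 312 with all libraries in 1 fit and 6 without both replicate 1 libraries. The cause of these differences was not tested.

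The replicate numbers were checked for pairing. Same-numbered deviations had r of -0.009, 0.116 and 0.005 (lung), 0.332, -0.080 and 0.035 (liver) and 0.156, -0.112 and -0.025 (intestine), and not every library correlated best with its own number, so the numbers were not taken as pairs, although the replicate 1 libraries share the traces of Myl2. With the replicate block 1 gene was called in the lung, 0 in the liver and 3 in the intestine.

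In the lung lists of sarcomere, calcium and muscle energy genes, where 0 were called, array weights called 20, 15 and 10, all 18 libraries in 1 fit 12, 4 and 2, and the fit without control lung 3 gave 11, 8 and 5. Over all 13424 lung genes these 3 settings called 7137, 818 and 3295. The Atp2a2 log2 change kept its sign under every setting run, from -0.89 to -0.66 in the lung, -0.77 to -0.53 in the intestine and -0.20 to -0.09 in the liver. Quantile normalization gave -0.66 in the lung and -0.77 in the intestine. The organ order of Atp2a2 reversed with median-of-ratios scaling (lung over liver -0.90, lung over intestine -0.27, intestine over liver -0.63) and with quantile normalization for lung over liver (-0.18) and intestine over liver (-0.39). Ryr2 in the lung ran from -0.74 at a pseudocount of 0.1 to -0.21 at 5, and Ckm was -1.01 at 5. Depth was only implied, so no counting error is given for single values.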

Other observations

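Csrp3, the muscle LIM protein of heart and skeletal muscle, was at 34.0, 19.6 and 22.3 FPKM in the control livers and 29.6, 18.97 and 23.2 FPKM in the H2 livers, beside 5.65 to 27.8 FPKM in the lung libraries, and both replicate 1 livers exceeded every lung. Smyd1, a methyltransferase known from heart and skeletal muscle, was at 3.41, 5.76 and 3.49 FPKM in the control livers and 5.52, 6.40 and 6.29 FPKM in the H2 livers, above its lung level of 0.447 to 1.70 FPKM. In the same livers Myh6 was at most 0.899 FPKM, Myl7 at most 0.238 FPKM, and Sln was listed at 0. Gata4, a transcription factor of heart and gut, was at 11.2 and 11.3 FPKM in H2 intestine 2 and 3 and at most 0.184 FPKM in the other 4 intestine libraries.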
